A study of Mus musculus with 18 samples.

Results

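The genes examined here are 10 genes that sit at the output end of receptor tyrosine kinase signalling, the ETS factors Etv1, Etv4 and Etv5 and the ERK feedback inhibitors Spry1, Spry2, Spry4, Spred1, Spred2, Dusp4 and Dusp6. They were chosen by name, and all 10 were found among the 24100 genes listed in each of 2 count tables. RNA was measured in C3H/10T1/2 cells, a mouse mesenchymal progenitor line (MPCs), in 18 libraries. There were 3 lines: Atrx WT, made with a Cas9 vector that carried no sgRNA, and 1 Atrx KO clone for each of the sgRNAs sg5 and sg6. Each line had 3 polyA libraries and 3 rRNA-depleted libraries. A clone therefore stands for its sgRNA alone, all lines have been through Cas9 transfection, and what separates a clone from WT includes anything else in which those lines differ. The p-values measure the spread between libraries of a line, and nothing in the labels says that these came from separate cultures. The comparisons ask how loss of Atrx, which encodes a chromatin remodeller, changes transcription, and here whether Etv1 moved with its paralogs and with the feedback inhibitors.

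Growth factor receptors pass a signal through RAS and the kinase cascade to ERK, and active ERK raises transcription of a small set of genes that report on its activity. Etv1, Etv4 and Etv5 encode the PEA3 group of ETS transcription factors, which are induced by FGF signalling in many mesenchymal tissues once the repressor Capicua (Cic) is released from DNA. The Sprouty and Spred proteins block the pathway between the receptor and RAF, and the dual-specificity phosphatases encoded by Dusp4 and Dusp6 remove phosphate from ERK itself, so a cell with more ERK activity commonly has more of these transcripts.

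Total counts ran from 27544833 to 235346363 in the polyA libraries, with all 3 sg5 libraries at 161036799 or more, and from 20135336 to 33187136 in the rRNA-depleted libraries. Atrx itself was lower in both clones. Its level, in counts scaled by library size with TMM factors (CPM), was 300.3 ± 26.0 in WT, 127 ± 12.2 in sg5 and 131 ± 9.69 in sg6 (mean ± SD, n = 3 polyA libraries each), with log2 fold changes of -1.24 ± 0.10 (SE) and -1.20 ± 0.10. The rRNA-depleted libraries gave -1.39 ± 0.21 and -1.31 ± 0.20, and all 4 passed (edgeR). Of the 10 mesenchymal markers examined none was at 0 in all 9 libraries of an assay, and their summed level in the polyA libraries was 41109 to 46786 CPM in WT, between 51858 and 54969 in sg5, and between 59522 and 63015 in sg6. Single markers did not all follow the sum: by the edgeR test Fn1 and Pdgfrb rose in sg5 while S100a4 and Thy1 fell, and Thy1 had a log2 fold change of -1.73 ± 0.19 in sg5 and 7.03 ± 0.19 in sg6. The 10 markers of epithelial, blood, endothelial, neural and smooth muscle cells summed to 11.7 to 13.6 CPM in WT, between 8.77 and 9.37 in sg5, and between 7.87 and 9.09 in sg6, and 2 of them had at most 3 counts in every library. These sums did not overlap between WT and either clone, and their part in the results on the 10 genes was not tested.

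The promoters of 4 of the genes are shown to set Etv1 and Spry1, whose losses passed under every alternative in one assay, beside the feedback genes with a Capicua-type octamer upstream, Dusp6 and Spry2. Each run is the 250 bases before the RefSeq start in GRCm38.p6, written 5′ to 3′ on the strand of the gene. The window of Etv1 is at chr12:38779832-38780081 (plus strand), that of Spry1 at chr3:37639697-37639946 (plus), that of Dusp6 at chr10:99262981-99263230 (plus) and that of Spry2 at chr14:105896820-105897069 (minus). Capitals mark a match to one of the octamers TGAATGAA, TGAATGGA, TCAATGAA and TCAATGGA, read on both strands.
Etv1: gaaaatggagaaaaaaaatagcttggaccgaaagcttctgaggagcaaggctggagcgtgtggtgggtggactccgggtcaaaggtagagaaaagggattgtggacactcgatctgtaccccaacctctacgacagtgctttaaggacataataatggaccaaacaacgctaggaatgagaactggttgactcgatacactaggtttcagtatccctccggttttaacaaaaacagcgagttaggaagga
Spry1: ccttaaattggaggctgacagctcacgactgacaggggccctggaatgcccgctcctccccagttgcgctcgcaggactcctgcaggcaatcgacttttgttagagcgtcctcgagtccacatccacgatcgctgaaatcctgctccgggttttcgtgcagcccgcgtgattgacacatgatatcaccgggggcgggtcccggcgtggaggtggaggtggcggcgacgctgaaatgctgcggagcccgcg
Dusp6: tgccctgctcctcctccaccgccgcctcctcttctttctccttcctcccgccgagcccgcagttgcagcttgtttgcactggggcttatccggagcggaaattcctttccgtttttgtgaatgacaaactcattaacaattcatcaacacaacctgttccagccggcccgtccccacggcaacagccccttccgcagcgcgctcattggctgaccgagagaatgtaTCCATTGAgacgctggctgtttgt
Spry2: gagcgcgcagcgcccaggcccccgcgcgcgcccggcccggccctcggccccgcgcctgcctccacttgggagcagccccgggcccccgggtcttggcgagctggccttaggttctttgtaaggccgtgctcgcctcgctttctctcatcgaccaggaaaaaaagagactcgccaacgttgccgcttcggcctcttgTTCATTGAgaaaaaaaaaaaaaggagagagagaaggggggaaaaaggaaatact

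An octamer was present 24 to 17 bases before the start of Dusp6 and 54 to 47 bases before that of Spry2, each on the minus strand relative to the gene. RefSeq windows were matched for 7 of the 10 genes, Etv1, Etv5, Spry1, Spry2, Spred1, Spred2 and Dusp6, and 2 of their 9 windows held an octamer. Of all 32851 mouse windows of this length, 3.19% did. A match describes these letters and is no evidence of binding. Etv1 lies at chr12:38779380-38870484 in the GENCODE annotation of GRCm38. Its printed window lies inside that span and not before it. The other RefSeq window of Etv1, at chr12:38783461-38783710, is not printed, lies inside the span too and held no octamer.

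Spry2 and Spred1 were the most abundant of the genes in the WT polyA libraries. Levels per length, in CPM per kilobase of annotated exon in the polyA libraries, were 12.6 ± 2.64 for Spry2 and 11.7 ± 2.60 for Spred1 (SD, n = 3), which overlapped each other and no other gene. Dusp6 at 5.72 ± 1.61, Spred2 at 5.67 ± 2.25, Etv5 at 3.34 ± 1.79, Dusp4 at 1.96 ± 1.31, Etv4 at 1.94 ± 1.08, Etv1 at 1.45 ± 0.349 and Spry1 at 1.36 ± 0.207 followed, and each of these overlapped the next in that order. Spry4 was at 0.109 ± 0.0525, below all others. In the other assay Dusp6 was the highest at 18.8 ± 3.28 CPM per kilobase, followed by Spry2 at 17.2 ± 4.34 and Spred1 at 12.9 ± 2.38, and Spry4 was again the lowest at 0.0793 ± 0.0866. The 2 tables were normalized separately and counted by different tools, so their levels are given side by side and not compared.

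Etv1 fell in sg6 in the polyA libraries and did not pass the test in sg5. Its 3 WT libraries held 21.9, 22.1 and 14.0 CPM, the sg5 libraries 6.34, 14.4 and 10.7 CPM, and the sg6 libraries 5.98, 13.8 and 6.32 CPM. All sg6 libraries lay below all WT libraries, the highest of them at 13.8 CPM against 14.0 CPM in the lowest WT library, and sg5 replicate 2 lay above that WT library. The log2 fold change was -0.89 ± 0.38 (SE) in sg5 with an adjusted p of 0.117, and -1.15 ± 0.39 in sg6 with an adjusted p of 0.0492 (edgeR quasi-likelihood test, Benjamini-Hochberg over the 15480 genes tested). The sg6 call was lost without WT replicate 1 or 2, sg5 replicate 3, or sg6 replicate 1 or 3, with adjusted p from 0.0694 to 0.147.

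The paralogs did not pass in these libraries and pointed in opposite directions. Etv4 had 9.54, 5.65 and 2.87 CPM in WT, 2.53, 5.52 and 3.51 in sg5 and 3.61, 5.99 and 2.38 in sg6. The lines overlapped, with a log2 fold change of -0.63 ± 0.47 in sg5 (adjusted p = 0.364) and -0.58 ± 0.48 in sg6 (0.398, edgeR). Etv5 had 21.5, 12.6 and 6.94 CPM in WT, 18.1, 30.7 and 16.9 in sg5 and 24.1, 25.8 and 9.16 in sg6. Its values also overlapped, and its log2 fold changes of 0.69 ± 0.47 and 0.54 ± 0.47 had the opposite sign to those of Etv1, with adjusted p of 0.312 and 0.426 (edgeR).

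Etv1 fell in both clones in the rRNA-depleted libraries, and further in sg5. WT libraries held 13.3, 19.2 and 14.3 CPM, sg5 libraries 1.15, 1.28 and 1.66 CPM from counts of 30, 23 and 43, and sg6 libraries 2.84, 5.37 and 4.21 CPM from counts of 66, 144 and 96. No library of one line reached the range of another. The log2 fold change was -3.50 ± 0.29 in sg5 (adjusted p = 1.34e-05) and -1.91 ± 0.26 in sg6 (adjusted p = 0.000833, edgeR over 56086 features, of which 13303 were genes). Both calls passed under all 17 alternatives tried. The clones differed from each other by -1.59 ± 0.28 on the log2 scale, sg5 below sg6 (adjusted p = 0.0209, edgeR), and that call was lost without sg5 replicate 1 or 2 or sg6 replicate 2 or 3, with adjusted p from 0.0616 to 0.102, and when only these 2 lines were fitted. The polyA libraries gave 0.26 ± 0.38 for the same difference, with the opposite sign and an adjusted p of 0.817 (edgeR). Without sg5 replicate 2 this polyA difference was -0.035. About 9.97% of the 31-base words of Etv1 exons are shared with other genes, mainly the pseudogene Gm5454, so part of its reads could be split by either counter.

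Etv4 fell in sg5 in the rRNA-depleted libraries. It had 3.72, 12.3 and 2.98 CPM in WT, 0.038, 0.613 and 0.928 in sg5 from counts of 1, 11 and 24, and 0.862, 8.42 and 2.72 in sg6. All sg5 libraries lay below all WT libraries, and the sg6 libraries spread across the WT range. The log2 fold change was -3.59 ± 0.88 in sg5 (adjusted p = 0.0370) and -0.65 ± 0.74 in sg6 (adjusted p = 0.812, edgeR). The sg5 call was lost without any 1 of the WT libraries, or without sg5 replicate 1 or 2, with adjusted p from 0.0561 to 0.156. Etv5 had 2.89, 5.38 and 3.09 CPM in WT, 0.731, 3.84 and 1.97 in sg5 and 2.41, 7.90 and 3.81 in sg6. The 3 lines overlapped, and neither -0.82 ± 0.52 in sg5 (adjusted p = 0.473) nor 0.32 ± 0.50 in sg6 (0.881, edgeR) passed. Etv5 shares 30.3% of its exonic 31-base words with other genes, mainly Gm4798.

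Etv1 fell relative to Etv5 in every clone library of both assays. The measure was the difference of log2(CPM + 0.5), Etv1 minus paralog, within each library. Against Etv5 in the polyA libraries it was 0.03 to 0.96 in WT and -1.93 to -0.50 over the 6 clone libraries, a difference of means of -1.67. The rRNA-depleted libraries gave 1.74 to 2.04 in WT and -1.29 to 0.43 in the clones, a difference of -2.14. All 6 clone libraries lay below all 3 WT libraries in both assays, with a two-sided exact permutation p of 0.0238, the smallest that 6 against 3 allows, and 0.0476 after adjustment over the 4 ratios tested. That test pools the libraries of both clones against those of 1 WT line. Its units are therefore libraries and not lines, and its p says nothing on how other clones would vary. Against Etv4 the ranges overlapped. The difference was -0.55 in the polyA libraries and -0.78 in the rRNA-depleted libraries, with exact permutation p of 0.119 and 0.143, both 0.143 after adjustment. For 1 clone against WT, 3 against 3 libraries, the smallest p is 0.1, which both clones reached against Etv5 in both assays.

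**Figure D1:**
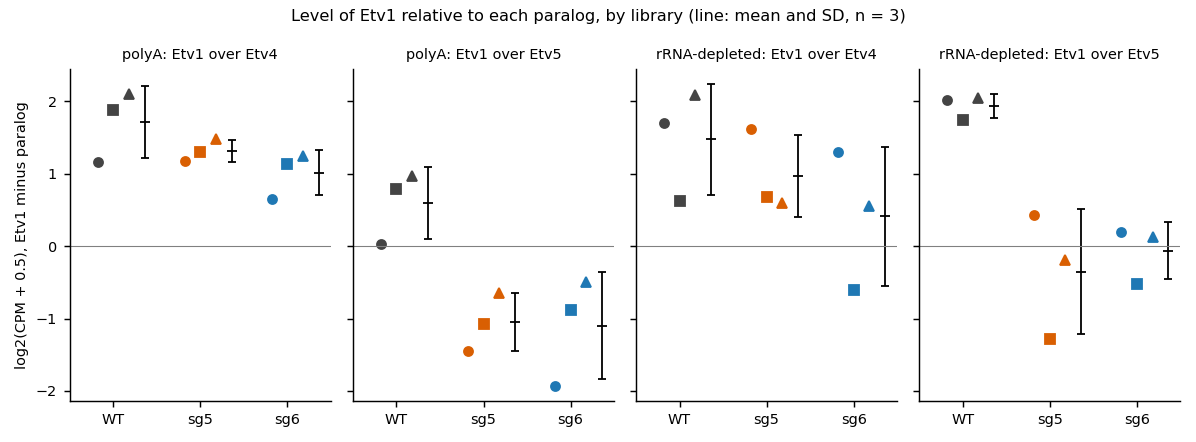
Level of Etv1 relative to Etv4 or Etv5 in each library, as the difference of log2(CPM + 0.5), for the 3 lines and both assays; circles, squares and triangles are replicates 1, 2 and 3, and the black line is the mean and SD of 3 libraries. Against Etv5 all 6 clone libraries sit below all 3 WT libraries in both assays, and against Etv4 the lines overlap.

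Among the Sprouty genes, which encode inhibitors acting upstream of RAF, Spry1 fell and Spry4 rose in the polyA libraries. Spry1 had 3.35, 4.55 and 3.98 CPM in WT, 1.17, 0.611 and 0.456 in sg5 and 0.429, 0.353 and 0.337 in sg6. All clone libraries lay below all WT libraries, and all sg6 libraries below all sg5 libraries. Its log2 fold change was -2.42 ± 0.33 in sg5 (adjusted p = 0.00078) and -3.41 ± 0.36 in sg6 (adjusted p = 0.000181, edgeR), 5.34-fold and 10.6-fold lower, and both passed under all 16 alternatives. The clones differed by 0.99 ± 0.35 with an adjusted p of 0.182 (edgeR). Spry1 is overlapped on the opposite strand by Gm42922, a locus of type TEC (a transcript of unproven status), and whether the counting used strand is not given in the sources used here.

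Spry1 was below WT in every rRNA-depleted clone library too. It had 2.15, 1.77 and 2.42 CPM in WT, 1.23, 0.279 and 0.116 in sg5 and 0.603, 0.112 and 0.175 in sg6, from at most 32 counts in a clone library. The log2 fold change was -1.92 ± 0.63 in sg5 (adjusted p = 0.125) and -2.84 ± 0.69 in sg6 (adjusted p = 0.0406, edgeR). Without sg5 replicate 1, the sg5 library with the most Spry1, the sg5 change was -3.43 with an adjusted p of 0.00411. The sg6 call was lost without any 1 of the WT libraries, or without sg6 replicate 2 or 3, with adjusted p from 0.0710 to 0.180.

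Spry4 was the rarest of the genes per kilobase in WT. Spry1 had a lower mean per kilobase in both clones in the polyA libraries and in sg6 in the rRNA-depleted libraries. In each of these cases the libraries of Spry1 and Spry4 overlapped. Spry4 had 0.803, 0.423 and 0.334 CPM in the WT polyA libraries, 1.43, 2.70 and 1.72 in sg5 and 2.20, 1.88 and 0.586 in sg6. The sg5 libraries all lay above WT, and sg6 replicate 3 lay within the WT range. Its log2 fold change was 1.98 ± 0.52 in sg5 (adjusted p = 0.0201) and 1.66 ± 0.52 in sg6 (adjusted p = 0.0393, edgeR). The sg5 call was lost without WT replicate 2 or 3 or sg5 replicate 2, with adjusted p from 0.0648 to 0.0888. The sg6 call was lost without WT replicate 2 or 3, sg5 replicate 3, or sg6 replicate 1 or 2, with adjusted p from 0.0579 to 0.141, and also when counts were thinned to the smallest library (0.0765) or only the 2 lines were fitted (0.0655). With ribosomal RNA depleted, Spry4 rested on 2 to 23 counts a library, with 0.088, 0.848 and 0.195 CPM in WT, 0.115, 0.446 and 0.309 in sg5 and 0.215, 0.820 and 0.745 in sg6. The lines overlapped there, and its values of -0.42 ± 0.79 in sg5 (adjusted p = 0.851) and 0.66 ± 0.72 in sg6 (0.806, edgeR) did not pass.

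Spry2, the most abundant Sprouty, and the Spred genes, whose products recruit neurofibromin to switch off RAS, passed in no comparison with WT. Spry2 had 31.2, 20.3 and 27.4 CPM in WT, 34.8, 36.5 and 33.7 in sg5 and 36.8, 28.2 and 24.6 in sg6 in the polyA libraries. The sg5 libraries lay above WT, with a log2 fold change of 0.42 ± 0.18 and an adjusted p of 0.113, or 0.0486 without WT replicate 1, while the sg6 value was 0.19 ± 0.18 with an adjusted p of 0.460 (edgeR). Its rRNA-depleted log2 fold changes were 0.30 ± 0.29 and -0.01 ± 0.29, with adjusted p of 0.658 and 0.993 (edgeR). Spred1 was at 97.9, 78.2 and 62.8 CPM in WT, 85.6, 99.3 and 79.2 in sg5 and 86.3, 83.3 and 66.5 in sg6 in the polyA libraries, and its 4 log2 fold changes against WT ran from -0.15 to 0.15 with SE of 0.17. Spred2 was at 37.4, 24.3 and 16.9 CPM in WT, 24.0, 29.6 and 21.3 in sg5 and 27.3, 28.6 and 17.0 in sg6, and its log2 fold changes were -0.06 ± 0.29 and -0.10 ± 0.29. Its rRNA-depleted values were 6.31, 7.71 and 6.18 CPM in WT, 2.69, 6.07 and 4.44 in sg5 and 5.34, 7.01 and 6.57 in sg6. The sg5 libraries lay below WT there, with a log2 fold change of -0.62 ± 0.28 and an adjusted p of 0.273 (edgeR).

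Dusp6 was lower in both clones in the rRNA-depleted libraries, where the sg5 comparison alone passed, and it passed in neither clone in the polyA libraries. Dusp6, whose product acts on ERK in the cytoplasm, had 56.9, 69.9 and 49.7 CPM in WT, 34.9, 34.9 and 30.6 in sg5 and 27.3, 46.5 and 27.3 in sg6 there. All clone libraries lay below all WT libraries. The log2 fold change was -0.81 ± 0.21 in sg5 (adjusted p = 0.0496) and -0.80 ± 0.21 in sg6 (adjusted p = 0.0643, edgeR). Between the clones the difference was -0.01 ± 0.21 (adjusted p = 0.997, edgeR). The sg5 call was lost without any 1 of the WT or sg5 libraries, or without sg6 replicate 1 or 3, with adjusted p from 0.0591 to 0.263, and under median-of-ratios scaling (0.0814) or with no filter on low counts (0.0686). The settings under which the sg6 comparison passed included leaving out sg6 replicate 2 (0.00992), the library at 46.5 CPM, and it also passed when genes were fitted without repeat loci (0.0339) and when counts were thinned to the smallest library (0.0489). Its polyA libraries had 23.6, 14.2 and 15.9 CPM in WT, 15.9, 30.1 and 23.9 in sg5 and 13.5, 17.3 and 12.4 in sg6. These overlapped, and 0.39 ± 0.26 in sg5 (adjusted p = 0.306) and -0.31 ± 0.26 in sg6 (0.408, edgeR) did not pass.

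Dusp4, whose product acts on ERK in the nucleus, did not pass in any comparison with WT. Its polyA libraries had 9.50, 3.55 and 3.07 CPM in WT, 11.996, 17.8 and 11.3 in sg5 and 10.8, 9.34 and 4.26 in sg6. All sg5 libraries lay above WT, with a log2 fold change of 1.38 ± 0.47 and an adjusted p of 0.0553 (edgeR), and sg6 overlapped WT with a change of 0.63 ± 0.47 and an adjusted p of 0.344. WT replicate 1 was the highest WT library. Without it the changes were 2.05 in sg5 (adjusted p = 0.00642) and 1.30 in sg6 (adjusted p = 0.0330), and other settings under which the sg5 comparison passed included leaving out sg6 replicate 3 (0.0400), no filter on low counts (0.0463) and DESeq2 (0.0114). Its rRNA-depleted libraries had 4.95, 9.99 and 3.29 CPM in WT, 2.77, 4.46 and 5.64 in sg5 and 2.76, 17.6 and 8.37 in sg6. The lines overlapped, at -0.50 ± 0.54 in sg5 (adjusted p = 0.710) and 0.66 ± 0.53 in sg6 (0.708, edgeR).

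**Figure D2:**
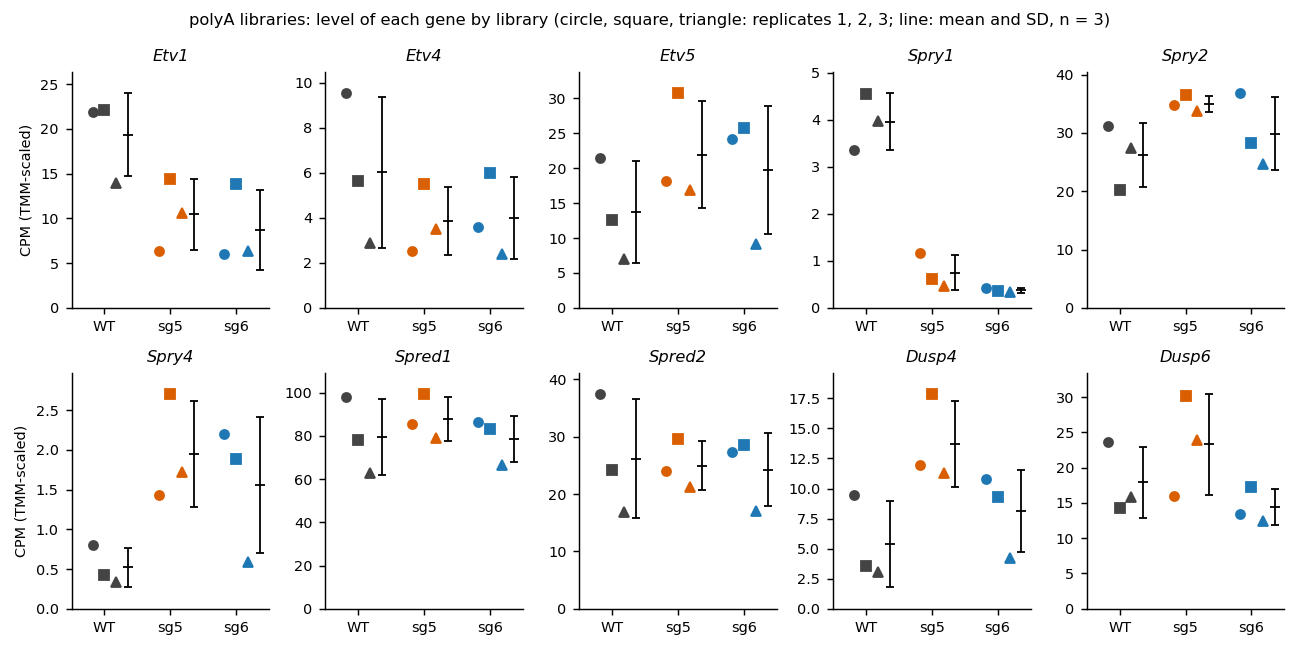
Level of each of the 10 genes in the 9 polyA libraries, in CPM, by line; circles, squares and triangles are replicates 1, 2 and 3, and the black line is the mean and SD of 3 libraries. Spry1 is lower in every clone library than in every WT library, and Spry4 is higher in every sg5 library than in every WT library.

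**Figure D3:**
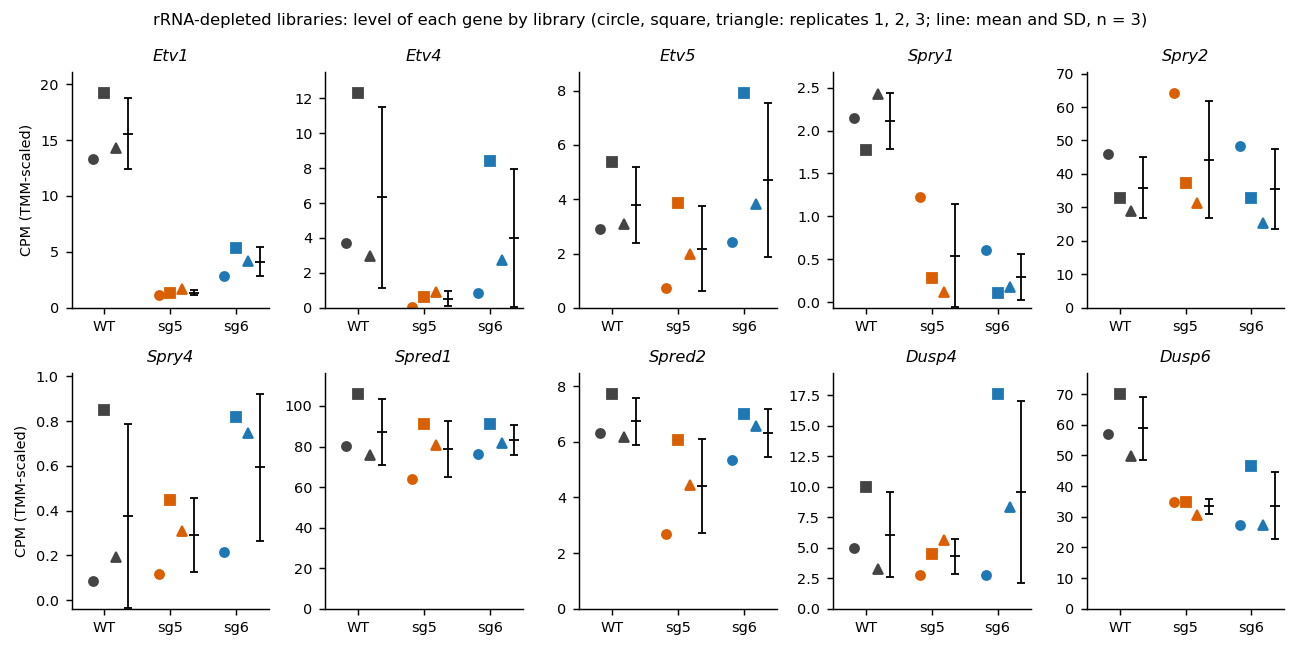
Level of each of the 10 genes in the 9 rRNA-depleted libraries, in CPM, with symbols as in the polyA plot; a few SD bars reach below 0, which a level cannot. Etv1, Spry1 and Dusp6 are lower in every clone library than in every WT library.

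All 10 genes passed the filter on low counts in both tables. In the polyA libraries 1 rose (Spry4) and 1 fell (Spry1) in sg5, where 27.0% of all genes tested passed, 13.6% higher and 13.4% lower. In sg6 1 rose (Spry4) and 2 fell (Etv1 and Spry1), where 30.7% passed, 16.1% higher and 14.6% lower. The libraries did not overlap WT for 3 genes on the higher and 1 on the lower side in sg5, against 21.2% and 20.3% of all genes, and for 0 and 2 in sg6, against 22.4% and 20.0%. Between the clones edgeR called 0 of the 10 and DESeq2 called 0, with 2 at an unadjusted p below 0.05. By edgeR 4.79% of all genes passed, 2.11% higher and 2.67% lower in sg5, and 2629 of 15480 had an unadjusted p below 0.05. DESeq2 called 638 higher and 802 lower of 15477. In that comparison 2 of the 10 did not overlap on the higher side and 0 on the lower, against 11.7% and 13.8% of all genes. The median log2 fold change of the 10 was 0.27 in sg5 and -0.06 in sg6, against -0.0024 and -0.0061 over all genes.

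With ribosomal RNA depleted, 3 of the 10 fell in sg5 (Etv1, Etv4 and Dusp6) and 2 in sg6 (Etv1 and Spry1), and none rose. Of all features, repeat loci included, 3.88% passed in sg5 and 2.89% in sg6. Of the genes among them 10.7% passed in sg5, 5.64% higher and 5.1% lower, and 7.58% in sg6, 3.56% higher and 4.03% lower. The libraries lay wholly below WT for 5 of the 10 in sg5 and 3 in sg6, against 14.9% and 14.2% of genes, and wholly above for none, against 21.4% and 17.1%. Between the clones Etv1 alone passed, where 0.49% of all features and 1.57% of genes did, 0.579% higher and 0.992% lower in sg5. It was also the 1 gene of the 10 whose sg5 and sg6 libraries did not overlap, against 9.59% of genes higher and 9.22% lower. The medians of the 10 were -0.72 in sg5 and -0.08 in sg6, against 0.08 and 0.04 over all genes of the table.

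**Figure D4:**
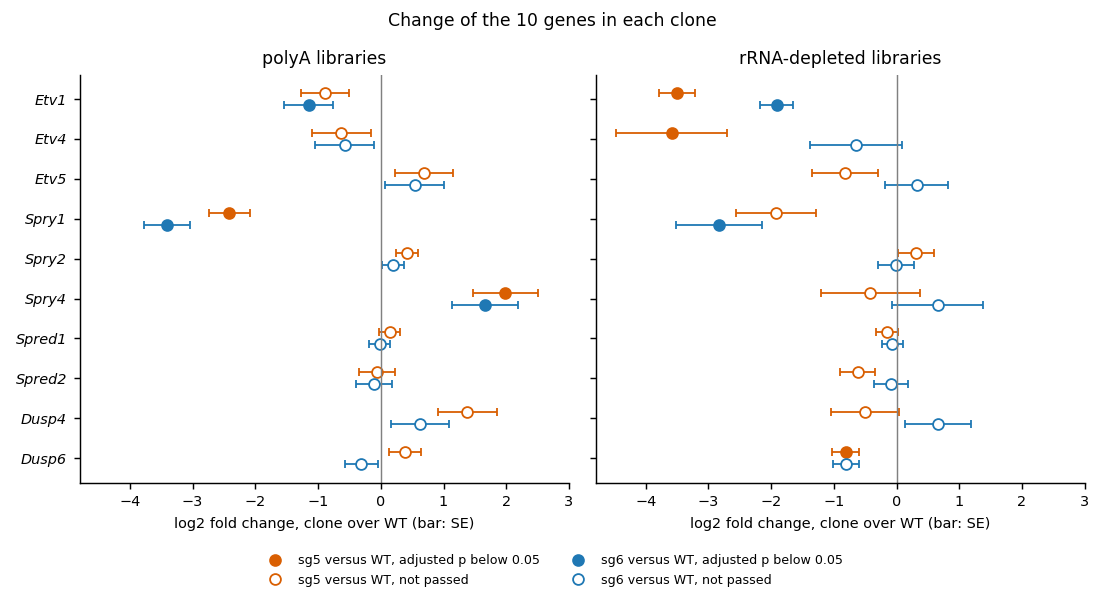
Log2 fold change of each gene against WT with its SE, for sg5 and sg6, in the polyA (left) and rRNA-depleted (right) libraries; filled points have an adjusted p below 0.05 (edgeR). Etv1 and Spry1 lie below 0 in all 4 comparisons, Etv4 lies below 0 in all 4 with 1 passing, and Spry4 passes on the higher side in the polyA libraries alone.

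The median change over the genes of a chromosome was shifted for some chromosomes, and 2 of the changed genes lie on chromosomes with higher medians in the clones. Etv4 lies on a chromosome with lower medians in the clones. The medians themselves were not tested. The 544 polyA genes of chromosome 12, which carries Etv1, were shifted by a median of 0.33 (log2) in sg5 and 0.36 in sg6, and the 462 genes tested in the rRNA-depleted libraries by 0.37 and 0.41. Relative to those medians, Etv1 was at -1.21 and -1.51 in the polyA libraries and at -3.88 and -2.32 in the rRNA-depleted libraries. The 418 polyA genes of chromosome 18, which carries Spry4, had medians of 0.40 and 0.35, and Spry4 was at 1.58 and 1.31 relative to them. For Spry1, on chromosome 3, the polyA medians were 0.02 and -0.07. Spry2, on chromosome 14, went from 0.42 to 0.18 in sg5 and from 0.19 to -0.03 in sg6 after the same subtraction. Dusp4, on chromosome 8, went from 1.38 to 1.12 in sg5 in the polyA libraries, where the median was 0.27. For Etv4, on chromosome 11, the rRNA-depleted sg5 median was -0.26, and its change went from -3.59 to -3.33. The rRNA-depleted sg5 median of chromosome 10, which carries Dusp6, was 0.0004.

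In some lines many of the genes were highest in the same library, and in others they were split. In the polyA libraries 9 of the 10 were highest in sg5 replicate 2, all but Spry1, where 31.4% of all genes tested were highest, and 8 were highest in WT replicate 1, all but Etv1 and Spry1, against 40.1%. In sg6, 5 of the 10 were highest in replicate 1, 5 in replicate 2 and 0 in replicate 3. Of all genes tested 36.8%, 25.4% and 37.7% were highest in those libraries. All but Etv1, 9 genes, were lowest in sg6 replicate 3, and the share of all genes lowest there was not computed. In the other assay 8 were highest in WT replicate 2 and 8 in sg6 replicate 2, all but Spry1 and Spry2 in both, where 32.0% and 35.6% of genes were highest. Etv4 reached 12.3 CPM in that WT library against 3.72 and 2.98 in the others, and Dusp4 17.6 CPM in that sg6 library against 2.76 and 8.37. The rRNA-depleted sg5 libraries were split, with 2 genes highest in replicate 1, 5 in replicate 2 and 3 in replicate 3. Of all genes 39.4%, 44.7% and 15.9% were highest there. The within-line SD of log2(CPM + 0.5) was 0.24 to 0.70 over the 10 genes in the polyA libraries, against a median of 0.16 over all genes tested, and 0.22 (Spred1) to 1.07 (Etv4) in the rRNA-depleted libraries, against 0.23; these medians were not matched on level.

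Of the other 9 genes, Etv4 came nearest to the pattern of Etv1 over libraries. Likeness was measured as the root mean square difference of log2 CPM, each gene centred on its own mean, over the 9 polyA libraries and 11347 genes. The closest were Arhgap22 at 0.20, Spn at 0.23, Rtkn2 at 0.28, Lhfpl2 at 0.28 and Ass1 at 0.29. Etv4 was at 0.43 and ranked 69. The rest ran from Dusp6 at 0.63 (rank 1739) and Spred2 at 0.64 (rank 2133) through Spred1 at 0.68, Spry2 at 0.84 and Etv5 at 0.95 (rank 10218) to Spry1 at 1.13, Dusp4 at 1.19 and Spry4 at 1.41, of which Spry1 and Spry4 were under the level needed for a rank. The order differed in the rRNA-depleted libraries, where Lhfpl2 was at 0.34 and ranked 3, Rtkn2 at 0.47 and ranked 10, Arhgap22 at 0.54 and ranked 17, Ass1 at 0.68 and ranked 38, and Spn at 0.84 and ranked 82. The nearest of the other 9 genes there were Etv4 at 1.09 and Dusp6 at 1.11. Dusp6 ranked 343 of 11123 genes, and Etv4 was under the level needed for a rank in that assay.

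The genes around the pathway were counted by role, and each count in the polyA libraries is to be read against the 27.0% of all genes that passed in sg5 and the 30.7% in sg6. By direction these were 13.6% higher and 13.4% lower in sg5, and 16.1% and 14.6% in sg6. For counts in the rRNA-depleted libraries the shares of genes were 10.7% in sg5, 5.64% higher and 5.1% lower. In sg6 they were 7.58%, with 3.56% higher and 4.03% lower. At an unadjusted p below 0.05 (edgeR), 6456 of 15480 polyA genes passed in sg6. With ribosomal RNA depleted, 9488 of 56086 features did in sg5 and 7053 in sg6. DESeq2 called 2745 higher and 2728 lower of 15477 polyA genes in sg6. Of 13298 genes in the rRNA-depleted libraries it called 1076 higher and 713 lower in sg5, and 647 and 616 in sg6. Among FGF ligands, 1 of 5 tested fell in each clone in the polyA libraries. It was Fgf10, a mesenchymal ligand of FGFR2, with 57.6, 74.0 and 109.5 CPM in WT, 14.96, 12.98 and 16.3 in sg5 and 7.68, 20.1 and 29.8 in sg6, at -2.45 ± 0.43 in sg5 (adjusted p = 0.00311) and -2.07 ± 0.42 in sg6 (adjusted p = 0.00571) on the log2 scale (edgeR). All clone libraries lay below WT. Fgf10 also fell in sg5 in the rRNA-depleted libraries, at -2.63 ± 0.50 (adjusted p = 0.00844), and its sg6 value was -1.39 ± 0.47 (adjusted p = 0.188, edgeR), or -1.35 with an adjusted p of 0.0251 without sg5 replicate 1. Among receptor tyrosine kinases, 1 of 9 tested rose and 3 fell in each clone in the polyA libraries, with Egfr and Pdgfra lower and Pdgfrb higher in both. The sg5 count of 4 fell to between 1 and 3 whichever library was left out. With ribosomal RNA depleted, 1 of 9 fell in each clone, Egfr in sg5 and Fgfr2 in sg6.

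Of the 22 members of the RAS-ERK cascade, 5 rose and 2 fell in sg5 and 6 rose and 1 fell in sg6 in the polyA libraries, 7 of 22 in each clone against those 27.0% and 30.7%, with median log2 fold changes of 0.15 and 0.10. Rps6ka1, an ERK-activated kinase, was the only one past a log2 change of 1 in both clones. It had 1.75, 2.16 and 2.87 CPM in WT, 0.852, 0.550 and 0.598 in sg5 and 0.621, 0.755 and 0.604 in sg6, with changes of -1.77 ± 0.24 (adjusted p = 0.000899) and -1.78 ± 0.26 (adjusted p = 0.000933, edgeR), and it was below the filter in the rRNA-depleted table. There, 3 of 21 cascade genes rose in sg5 (Gab1, Mapk3 and Sos2) and 1 rose in sg6 (Sos2), and none fell. Of all genes tested there 5.64% rose in sg5 and 3.56% in sg6. Leaving out 1 library moved these cascade counts to between 0 and 3 in sg5 and between 0 and 2 in sg6. Gab1 and Sos2, which couple receptors to RAS, were among those that rose in both clones in the polyA libraries.

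Other ERK feedback genes split in direction. In the polyA libraries 3 of 11 rose and 3 fell in sg5, and 1 rose and 4 fell in sg6, with Spred3, Dusp2 and Lrig1 lower in both. Dusp2, a nuclear ERK phosphatase, had 0.873, 0.984 and 2.07 CPM in WT, 0.751, 0.288 and 0.506 in sg5 and 0.355, 0.209 and 0.213 in sg6. All clone libraries lay below WT, at -1.36 ± 0.42 in sg5 (adjusted p = 0.0413) and -2.32 ± 0.48 in sg6 (adjusted p = 0.0061) on the log2 scale (edgeR). The sg5 call was lost without WT replicate 2 or 3, sg5 replicate 2 or 3, or sg6 replicate 2 or 3, with adjusted p from 0.0539 to 0.159. With ribosomal RNA depleted, Dusp1 rose and Dusp2 fell in sg5 out of 10 tested, the Dusp2 call being lost without any 1 of the WT libraries or sg5 replicate 2 or 3 (adjusted p from 0.0531 to 0.156). In sg6 edgeR called 0, with 3 at an unadjusted p below 0.05 and 1 called by DESeq2.

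The immediate early and output genes of ERK, such as Fos and Egr1, mostly did not pass. In the polyA libraries 2 of 15 rose in sg5, Ccnd1 and Fos, and 0 passed in sg6, while 13 and 10 had positive log2 fold changes and the medians were 0.43 and 0.16. The sg6 comparison had 2 genes at an unadjusted p below 0.05, and DESeq2 called 2. With ribosomal RNA depleted, 1 of 15 rose in sg5, Phlda1, and edgeR called 0 in sg6, against 2 at an unadjusted p below 0.05 and 1 called by DESeq2. Leaving out 1 library gave 0 to 4 genes in both polyA comparisons. The sg5 count moved by more than 1.5 times without WT replicate 1 or 2, sg5 replicate 1 or 3 or sg6 replicate 2. In sg6 it moved from 0 without any 1 of the WT libraries, sg5 replicate 1 or sg6 replicate 3. Of the 6 regulators of PEA3 factors, 2 rose in sg5 (Atxn1l and Cop1) and 4 in sg6 (Atxn1, Atxn1l, Cop1 and Ddb1) in the polyA libraries. In the rRNA-depleted libraries edgeR called 0 of them in each clone, against 4 in sg5 and 3 in sg6 at an unadjusted p below 0.05 and 1 in each called by DESeq2. In the polyA libraries Cop1, which marks ETV proteins for degradation, and Atxn1l, a partner of Capicua, rose in both clones, by 0.23 ± 0.07 and 0.29 ± 0.07 and by 0.42 ± 0.08 and 0.38 ± 0.08 on the log2 scale. The Cop1 call in sg5 held in 2 of 9 fits that each left out 1 library, and that in sg6 in 7. Cic itself was at -0.06 ± 0.12 and -0.08 ± 0.12 in the polyA libraries. In the rRNA-depleted libraries it was at 0.75 ± 0.32 in sg5 (adjusted p = 0.246) and -0.03 ± 0.32 in sg6 (0.988, edgeR). The clones differed there by 0.78 ± 0.32 (adjusted p = 0.553, edgeR).

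Among 14 other ETS factors, 2 rose and 3 fell in sg5 and 3 rose and 4 fell in sg6 in the polyA libraries, with medians of 0.08 and 0.01. Erg was the only one past a log2 change of 1 in both clones. It had 32.6, 27.5 and 17.4 CPM in WT, 16.9, 7.69 and 7.49 in sg5 and 7.96, 5.06 and 4.12 in sg6, with changes of -1.27 ± 0.38 (adjusted p = 0.0332) and -2.17 ± 0.39 (adjusted p = 0.0030, edgeR). The sg5 call was lost without WT replicate 1 or 2, sg5 replicate 2 or 3, or sg6 replicate 2, with adjusted p from 0.0512 to 0.110. Erg was also the only 1 of 14 to fall in sg6 in the rRNA-depleted libraries, and edgeR called 0 in sg5, against 3 at an unadjusted p below 0.05 and 1 called by DESeq2. Of the markers of other cell types, Cdh1 fell in both clones in both assays, and its polyA level averaged 3.86 ± 1.20 CPM for WT, 1.24 ± 0.376 for sg5 and 0.412 ± 0.148 for sg6 (SD, n = 3). Pecam1 fell from 0.340 ± 0.120 CPM to 0.136 ± 0.0081 and 0.152 ± 0.0533 in the polyA libraries. Its call was lost in sg5 without WT replicate 2 and in sg6 without WT replicate 2 or 3 or sg6 replicate 1 or 3.

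**Figure D5:**
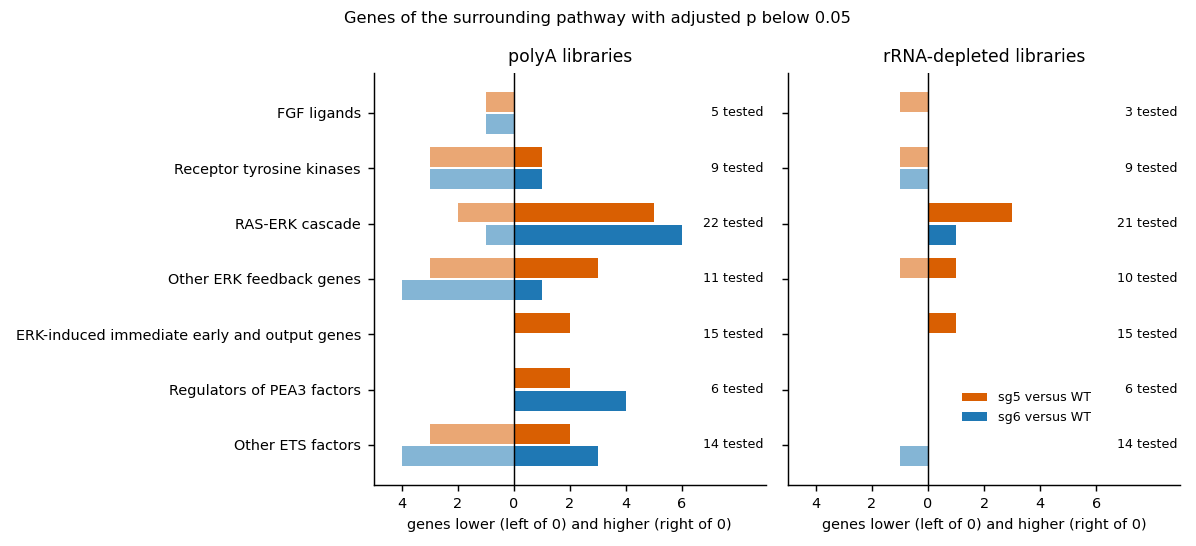
Number of genes of each pathway list with an adjusted p below 0.05 (edgeR) in sg5 and sg6 against WT, lower to the left of 0 and higher to the right, in the polyA and rRNA-depleted libraries, with the number of genes tested at the right edge. The RAS-ERK cascade has 5 and 6 genes higher in the polyA libraries, and no list has more than 4 genes lower in a clone.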

How the data were processed

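PolyA-selected and rRNA-depleted RNA of C3H/10T1/2 MPCs was sequenced in 18 libraries, 3 per line and assay, and samples were grouped by their labels. PolyA reads were trimmed with Rfastp and quantified with Salmon (0.8.2 in the submitters' processing notes) on mm10 known genes. From these the authors deposited an estimated count for each gene, made with tximport and given as whole numbers without normalization. For the rRNA-depleted libraries they aligned with STAR 2.27.10a, counted with TElocal, and deposited raw counts of genes and of 3725827 repeat loci. Strand settings are not given in the sources used here. Gene IDs were given symbols from NCBI tables (24045 of 24100 matched).

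The 10 genes and all gene lists were chosen with earlier results of these data known. Each table was fitted separately, all 9 libraries together, in edgeR 4.0.16 (filterByExpr with a minimum count of 10 and total of 15, TMM, glmQLFit and glmQLFTest, no covariate, R 4.3.3), with Benjamini-Hochberg adjustment over every feature tested. The threshold was an adjusted p of 0.05; a log2 fold change of 1 was used only to name list genes. CPM are counts scaled by the TMM-adjusted library size; divided by the length of merged GENCODE exons they give CPM per kilobase. Ratios of Etv1 to its paralogs used log2(CPM + 0.5) and two-sided exact permutation tests (scipy). Named genes were the 10 members, the 5 genes most like Etv1 whose mean log2 CPM was 1 or more, and list genes past both thresholds in the same direction in both clones of the polyA libraries. Counting error alone limits a library at 3 counts or fewer, as for Etv4, Spry1 and Spry4 in some rRNA-depleted libraries. Alternatives were DESeq2 1.42.0, median-of-ratios scaling, other filters, 2 groups, thinning, a replicate block, genes without repeat loci and leaving out each library. The code was tested on simulated data.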

Additional observations from a re-analysis of the deposited data

Results flagged for a closer look

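Among the genes that the naming rule gave, the changes in the clones differed for 3 results. Etv1 in the rRNA-depleted libraries was lower in sg5 than in sg6 by a log2 fold change of -1.59 ± 0.28 (adjusted p = 0.0209, edgeR), with 1.37 ± 0.264 CPM in sg5 and 4.14 ± 1.26 in sg6 (SD, n = 3). The 3 sg5 libraries lay below the 3 sg6 libraries, as they did for 9.22% of genes tested. The call was lost without sg5 replicate 1 or 2 or sg6 replicate 2 or 3.

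Erg, an ETS factor of endothelial and skeletal tissues, was higher in sg5 than in sg6 in the rRNA-depleted libraries by 1.65 ± 0.31 on the log2 scale (adjusted p = 0.0291, edgeR). The call was lost without WT replicate 3, sg5 replicate 1, or sg6 replicate 2 or 3, with adjusted p from 0.0588 to 0.170.

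Cdh1, which encodes the epithelial cadherin, was higher in sg5 than in sg6 in the polyA libraries by 1.59 ± 0.37 (adjusted p = 0.0414, edgeR), at 1.24 ± 0.376 and 0.412 ± 0.148 CPM. That call was lost without WT replicate 2, sg5 replicate 2 or 3, or any 1 of the sg6 libraries, with adjusted p from 0.0664 to 0.141, and the rRNA-depleted value had the opposite sign, -0.64 ± 0.75 (adjusted p = 0.885, edgeR). Each of these comparisons is between 1 clone per sgRNA.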

How the results depend on the processing

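The log2 fold changes of the 10 genes were recomputed under 728 combinations of gene, comparison and alternative; 636 kept their direction and their side of the threshold, 40 lost a call, 16 gained one, 30 changed sign, and centring on the chromosome median moved 6 by more than their SE. The sign changes were all in comparisons with WT and among values that had not passed. Between the clones most genes were not part of this count. It held 17 polyA combinations, all kept, and in the rRNA-depleted libraries 13 kept and 5 that lost a call. Outside it, signs between the clones also changed, for example for Etv4 in 4 polyA alternatives and Dusp6 in 5 rRNA-depleted alternatives. Spry1 in the polyA libraries and Etv1 against WT in the rRNA-depleted libraries passed under every alternative. The number of the 10 genes called in sg5 in the polyA libraries was 2 and became 5 when replicate number entered the fit as a block (higher for 3, lower for 2). The block added calls for Etv1 (adjusted p = 0.0263), Dusp4 (0.0114) and Spry2 (0.0492) there, for Spry1 in sg5 (0.0220) and Dusp6 in sg6 (0.0065) in the rRNA-depleted libraries, and changed no other call of the 10 genes (edgeR). It also raised the count for the RAS-ERK cascade in the polyA libraries from 7 to 12 in sg5 and 11 in sg6. Calls rose over the whole table too. Of all 15480 polyA genes, 2105 higher and 2075 lower in sg5 became 2997 and 2776 with the block. In sg6, 2491 and 2260 became 3277 and 2928. Of 13303 genes in the rRNA-depleted libraries, 750 higher and 678 lower in sg5 became 1523 and 1044. In sg6, 473 and 536 became 927 and 800 there. The number called in sg6 in the rRNA-depleted libraries was 2 and became 1 with at least 10 counts in every library. Between the clones in the rRNA-depleted libraries it was 1 and became 2 with no filter and 0 when only the 2 groups were fitted. Leaving out 1 library at a time gave 1 to 4 genes called in sg5 and 1 to 3 in sg6 in the polyA libraries, 1 to 3 and 1 to 2 in the rRNA-depleted libraries, and 0 to 1 between the clones there. The causes were not tested; leaving out a library also lowers the residual degrees of freedom.

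Of the list counts, 431 of 594 stayed within 1.5 times. The mean difference of Etv1 minus Etv5 ran from -1.95 to -1.48 in the polyA libraries and from -2.27 to -1.93 in the rRNA-depleted libraries when 1 library was left out, where the exact permutation test can no longer pass after adjustment. For Etv1 minus Etv4 in sg5 in the rRNA-depleted libraries the ratio difference became 0.080 with a pseudocount of 0.1. Spry2 in sg6 in the rRNA-depleted libraries, at -0.01, became 0.020 with DESeq2, 0.0013 after thinning, 0.021 with median-of-ratios scaling, 0.010 with no filter and 0.0073 with 2 groups.

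Without 1 library, signs in comparisons with WT changed within these ranges of log2 fold change. In the rRNA-depleted libraries they were -0.82 to 0.071 for Dusp4, -0.26 to 0.023 for Spred1, -0.035 to 0.58 for Spry2 and -0.81 to 0.93 for Spry4 in sg5, and -0.11 to 1.24 for Dusp4, -1.81 to 0.29 for Etv4, -0.26 to 0.68 for Etv5, -0.17 to 0.11 for Spred1, -0.16 to 0.039 for Spred2 and -0.28 to 0.26 for Spry2 in sg6. In the polyA libraries they were -0.30 to 0.28 for Spred2 in sg5, and -0.16 to 0.16 for Spred1 and -0.34 to 0.24 for Spred2 in sg6.

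Replicate numbers were not taken to pair the libraries, because the labels give them no shared culture, batch or day and not every pair of same-numbered libraries correlated above 0.1. Deviations of same-numbered libraries correlated from 0.03 to 0.43 in the polyA and from -0.23 to 0.64 in the rRNA-depleted libraries, above 0.1 in 7 and 8 of 9 pairs, and libraries correlated best with their own number in 15 and 12 of 18 cases, a hint from the data and not from the design. The block fit called 733 genes higher and 720 lower of 15480 in replicate 1 against replicate 3 in the polyA libraries, and 61 and 9 of 56086 features in the rRNA-depleted libraries; by the design this contrast was to be read for the 10 genes only if the numbers paired the libraries, and it was not. Low counts limit Spry1, Spry4 and Etv4 in the rRNA-depleted libraries.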

Other observations

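A marker, a receptor and an ETS factor outside the naming rule were chosen here after their values were seen, because the clones differed from each other in both assays. Thy1, a surface glycoprotein of mesenchymal cells, was lower in sg5 than in sg6 by a log2 fold change of -8.76 ± 0.20 in the polyA libraries (adjusted p = 3.29e-08) and -8.25 ± 0.43 in the rRNA-depleted libraries (adjusted p = 3.76e-07, edgeR), where the sg5 libraries held 1, 4 and 1 counts. Both passed in all 9 fits that left out 1 library. Against WT it was at 7.03 ± 0.19 in sg6 (adjusted p = 7.64e-08) and -1.73 ± 0.19 in sg5 (adjusted p = 0.000268, edgeR) in the polyA libraries. Egfr and Dusp9 also differed between the clones in the polyA libraries, at -0.96 ± 0.22 (adjusted p = 0.0403) and 1.29 ± 0.29 (adjusted p = 0.0395, edgeR), each passing in 2 of 9 such fits, and Egfr did not pass in the rRNA-depleted libraries (-1.52 ± 0.34, adjusted p = 0.0970). Fgfr2, a receptor for FGF10, had 51.98, 40.7 and 38.96 CPM in the WT polyA libraries, 44.4, 24.8 and 25.8 in sg5 and 12.1, 5.30 and 6.45 in sg6. Its log2 fold change was -2.46 ± 0.34 in sg6 (adjusted p = 0.000729), its sg5 value was -0.47 ± 0.32 (adjusted p = 0.309), and the clones differed by 1.99 ± 0.33 (adjusted p = 0.00862, edgeR). In the rRNA-depleted libraries the sg6 change was -1.76 ± 0.37 (adjusted p = 0.0175), the sg5 value was 1.26 ± 0.35 (adjusted p = 0.0668), and the difference between clones was 3.02 ± 0.38 (adjusted p = 0.00176, edgeR). The difference between clones passed in all 9 fits that left out 1 library in each assay, and the rRNA-depleted sg6 call in 6 of 9.

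Ets1, an ETS factor of many mesenchymal cells, averaged 102 ± 5.72 CPM in the WT polyA libraries, 110.4 ± 15.8 in sg5 and 57.1 ± 4.30 in sg6 (SD, n = 3). The clones differed by 0.95 ± 0.11 in the polyA libraries (adjusted p = 0.00117) and by 1.07 ± 0.15 in the rRNA-depleted libraries (adjusted p = 0.00417, edgeR), sg5 above sg6 in both.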
